A study of Sus scrofa with 9 samples.

Results

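The ID genes encode small proteins that hold a helix-loop-helix dimerisation domain but lack the basic stretch that contacts DNA. They were taken from the deposited count table by gene name: ID1, ID2, ID3 and ID4, 4 of its 23507 genes. The family was picked because ID3 had been seen to be very abundant and lower in the heated libraries, so the ID3 values of heated and control libraries are described here without a test. All 4 members passed the filter on low counts.

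An ID protein pairs with E proteins (TCF3, TCF4 and TCF12), the broadly expressed basic helix-loop-helix (bHLH) factors, and the pair cannot bind DNA. E proteins are thereby kept from the tissue-specific bHLH factors that need them as partners. ID genes are classic targets of bone morphogenetic protein (BMP) signalling through SMAD1, SMAD5 and SMAD9 with SMAD4, and the oocyte itself secretes a BMP family ligand, BMP15.

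RNA was sequenced from wild-type oocytes of the pig, Sus scrofa, matured to metaphase II (MII), at which the egg arrests. Oocytes were cultured with their cumulus cells, and the labels name the oocyte as the sampled cell. The 3 control libraries came from oocytes kept at 38.5 °C. The 3 heat stress libraries came from oocytes held at 41.5 °C for 24 h from the germinal vesicle stage and then at 38.5 °C until MII. The 3 libraries of heat stress plus L-Asp had the same heat with L-Asp (L-aspartic acid by the usual amino acid code) in the medium. Of the 3 concentrations in the labels (0.5, 1.0 and 1.5 mmol/L), the one behind the libraries is not stated. The labels give 25 oocytes per group without their split over libraries. cDNA was primed with oligo(dT), so that a shorter poly(A) tail and less RNA cannot be told apart, and neither can fewer cells of a type and less RNA per cell.

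Total counts were 54965064 to 58361475 per control library, 46198885 to 53327419 per heat stress library and 41693395 to 49008681 per library with L-Asp. The control libraries were close to repeat samplings of one preparation. Their median index of dispersion, the squared difference of a pair relative to that of independent counts, was 5.19 to 5.22, whereas pairs of heat stress libraries gave 109 to 119 and pairs with L-Asp 79.4 to 84.9. They were therefore averaged and counted as 1 sample, which leaves control with no measured spread. The fit assumed that it varies like the other groups. The labels do not state whether a group's libraries represent different animals or culture dishes, and the p-values therefore reflect no more than the spread of these libraries. Levels below are CPM, counts scaled to a common library size with factors from the trimmed mean of M values (TMM), or the authors' deposited FPKM where genes are compared with each other, since FPKM is per transcript length.

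One member made up nearly all of the family's RNA. On the deposited FPKM scale ID3 stood at 7348, 7501 and 7418 in the control libraries, 2692, 2818 and 3043 in the heat stress libraries and 3539, 4081 and 4815 in those with L-Asp. ID3 ranked 10th of all genes in each control library, 17th to 22nd in the heat stress libraries and 14th to 18th with L-Asp. The other 3 members together reached 0.395 to 3.39 FPKM in any library. ID3 accordingly held 99.88% to 99.99% of the family's summed FPKM in each of the 9 libraries.

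Below ID3 the order of levels was not stable. ID1 came next in 7 of the 9 libraries, at 0.362 to 2.05 FPKM there, and was listed at 0 in libraries 2 and 3 of heat stress plus L-Asp. ID2 ranged from 0 to 0.960 FPKM and ID4 from 0 to 0.736 FPKM over the 9 libraries. Over the 9 libraries, and within each heated group, the ranges of ID1, ID2 and ID4 overlapped, so no order is read there. In control ID1, at 0.709 to 1.26 FPKM, lay above ID2 at 0.0815 to 0.303 and ID4 at 0 to 0.274. The control libraries count as 1 sample without a measured spread. The plot of FPKM by gene sets the family beside its partners and the BMP genes.

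**Figure D1:**
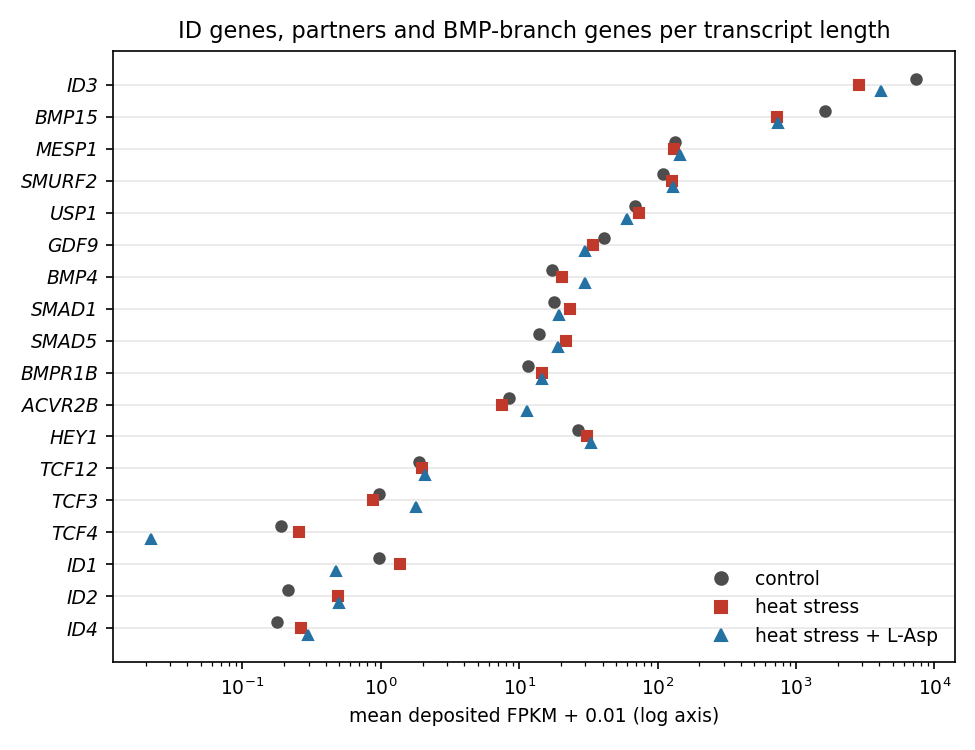
Mean deposited FPKM plus 0.01 (log axis) of the 4 ID genes, the 3 E proteins and selected bHLH, BMP-branch and turnover genes, one point per group over 3 libraries. ID3 lies to the right of all other genes shown, whereas ID1, ID2 and ID4 lie among or below the E proteins.

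ID3 (ENSSSCG00000039514, chromosome 6, 81422546 to 81424075, minus strand) is a protein-coding gene in the deposited annotation, of which the sources used here name no genome build. In control it measured 8111, 8280 and 8154 CPM. With heat alone it measured 2758, 2566 and 3185 CPM. With L-Asp during the heat it measured 3552, 4120 and 4920 CPM. All 6 heated libraries lay below every control library, and the 3 libraries with L-Asp all lay above the 3 with heat alone.

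The averaged control held 8183 CPM of ID3, against 2837 ± 317 CPM (SD, n = 3) with heat alone and 4197 ± 688 CPM (SD, n = 3) with L-Asp. These means are 34.7% and 51.3% of control. On the deposited FPKM scale, which is not TMM-scaled, they are 38.4% and 55.8%. The fitted log2 differences from control were -1.53 for heat stress and -0.96 for heat stress plus L-Asp. As a share of all counts, ID3 took 0.729% to 0.744% in control, 0.274% to 0.307% with heat alone and 0.362% to 0.498% with L-Asp.

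The background for this description is wide. Of 15012 genes tested, 25.0% had all 3 heat stress libraries below the averaged control, and 26.0% had all 3 libraries with L-Asp below it. Called by edgeR (quasi-likelihood test, Benjamini-Hochberg adjusted p under 0.05) were 0.0% in either direction, for heat stress and for heat stress plus L-Asp against control. An unadjusted p under 0.05 was found for 579 and 484 genes, and DESeq2 called 183 and 64. Because the family was chosen on this contrast, nothing is read from the place of ID3 in it. Of the 108 genes with a mean of at least 1000 CPM, the class that holds ID3, 40 had all 3 heat stress libraries below control.

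**Figure D2:**
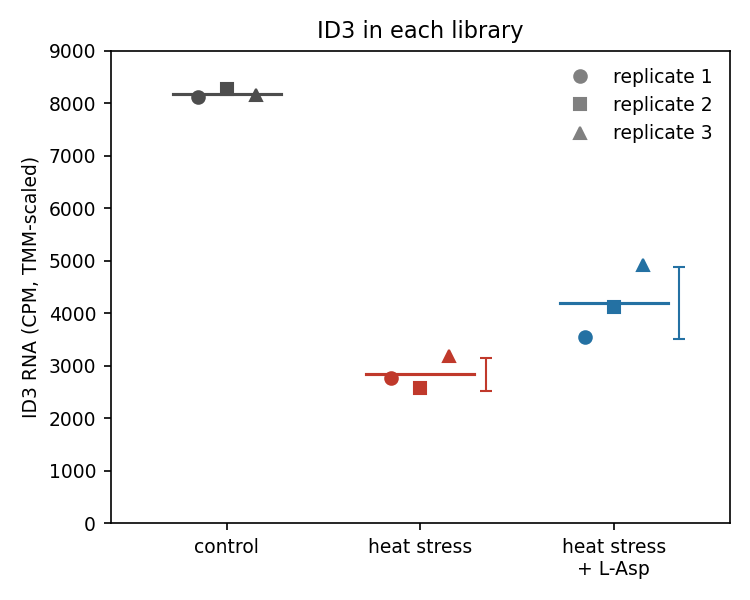
ID3 RNA in CPM (TMM-scaled) in each of the 9 libraries, with the group mean as a line and the SD (n = 3) as a bar for the heated groups. Control lies at 8111 to 8280 CPM, heat stress at 2566 to 3185 CPM and heat stress plus L-Asp at 3552 to 4920 CPM.

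The contrast of heat stress plus L-Asp with heat stress was not used to choose the family, and here ID3 was tested. ID3 RNA was 1.48 times as high with L-Asp, a log2 fold change of 0.57 ± 0.20 (SE; 95% interval 0.13 to 1.00). The unadjusted p of edgeR's quasi-likelihood test was 0.0153 and the adjusted p over all genes was 0.738, so ID3 did not pass. DESeq2 gave an adjusted p of 0.281. The 2 groups of 3 libraries did not overlap, and an exact two-sided permutation test on log2 CPM gave p = 0.1, the smallest that 3 against 3 allows.

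Groups without overlap and higher with L-Asp made up 6.31% of the genes tested. Among the 108 genes of at least 1000 CPM they numbered 14, and 8 of these 108 had a larger fold change than ID3, as did 3070 of all 15012. Among the 1769 genes with all 6 heated libraries below control the share was 6.33%. No gene of the 15012 was called in this contrast by edgeR (0.0% in either direction), 993 had an unadjusted p under 0.05 and DESeq2 called 179. An unadjusted p under 0.05 with a higher level under L-Asp, as for ID3, was found for 3.52% of the genes.

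Counting error is negligible for a gene with 131731 to 434217 counts per library, and the spread between libraries sets the precision. The coefficient of variation of ID3 was 11.2% between heat stress libraries and 16.4% between libraries with L-Asp, whereas the whole range of the control libraries was 2.07% of their mean. The share of counts from the mitochondrial genome varied as well, from 10.0% to 10.1% in control, 3.09%, 5.18% and 14.5% in heat stress replicates 1 to 3 and 5.30%, 9.47% and 9.29% in the replicates with L-Asp. Of the remaining counts, ID3 held 0.811% to 0.827% in control, 0.282% to 0.359% with heat alone and 0.383% to 0.549% with L-Asp. The 3 groups stayed apart on this scale.

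**Figure D3:**
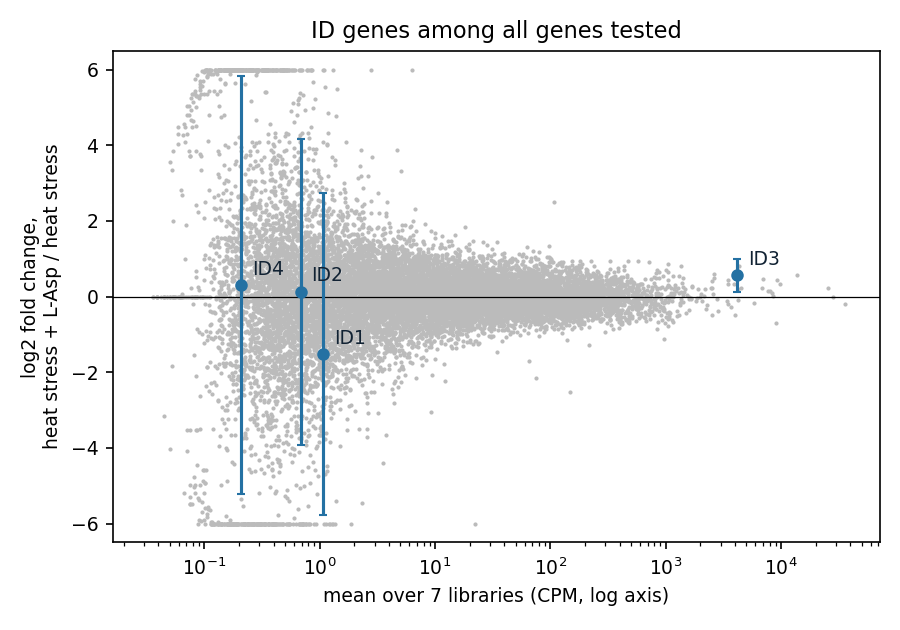
Log2 fold change of heat stress plus L-Asp over heat stress against the mean CPM over 7 libraries (log axis) for all 15012 genes tested, drawn at 6 or -6 where they lie beyond, with the ID genes and their 95% intervals in blue. ID3, at 0.57, lies at the abundant end with a narrow interval, and the intervals of ID1, ID2 and ID4 span 0.

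ID1, ID2 and ID4 were near the limit of detection. Low counts of the control libraries clustered at multiples of 4. In replicate 1 of control, 604 genes had 4 counts, whereas 330 had 3 and 216 had 5. With 4 counts per fragment, a gene without a count could still have had up to 3 fragments (12 counts), which is 0.229 to 0.284 CPM per library. This limit covers counting error only, and 4 counts per fragment is an assumption in the heated libraries.

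ID1 (ENSSSCG00000037016, chromosome 17, 35316514 to 35317736, plus strand) had 45, 85 and 62 counts in control, or 0.911, 1.62 and 1.19 CPM. It had 120, 92 and 23 counts with heat alone, or 2.43, 1.79 and 0.447 CPM. With L-Asp it had 80 counts in replicate 1, or 1.62 CPM, and 0 in replicates 2 and 3. The groups overlapped, since the library of 80 counts with L-Asp lies within the heat stress range. The log2 fold change with L-Asp over heat stress was -1.52 ± 1.94 (SE; 95% interval -5.79 to 2.75), with an adjusted p of 0.941 by edgeR's quasi-likelihood test.

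ID2 (ENSSSCG00000008645, chromosome 3, 127500763 to 127503257, minus strand) had 26, 21 and 8 counts in control, or 0.526, 0.400 and 0.154 CPM. With heat alone it had 38, 70 and 0 counts, or 0.770, 1.36 and 0 CPM. With L-Asp it had 39, 32 and 38 counts, or 0.791, 0.647 and 0.900 CPM. The 3 libraries with L-Asp lay close together inside the heat stress range and above each control library, as did 19.0% of all genes tested against the averaged control. The log2 fold change with L-Asp over heat stress was 0.13 ± 1.84 (SE; 95% interval -3.92 to 4.18), with an adjusted p of 1 by edgeR.

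ID4 (ENSSSCG00000024312, chromosome 7, 15281757 to 15282839, plus strand) was the least detected member. Its counts were 0, 11 and 13 in control, 0, 28 and 2 with heat alone and 10, 0 and 22 with L-Asp. Only 3 of the 9 libraries exceeded the level of 12 counts, 1 in each group, so no fold is read from it. In the fit, its 95% interval for L-Asp over heat stress on the log2 scale ran from -5.23 to 5.83 (adjusted p = 0.997 by edgeR). The intervals of ID1, ID2 and ID4 thus span changes of several fold in either direction.

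**Figure D4:**
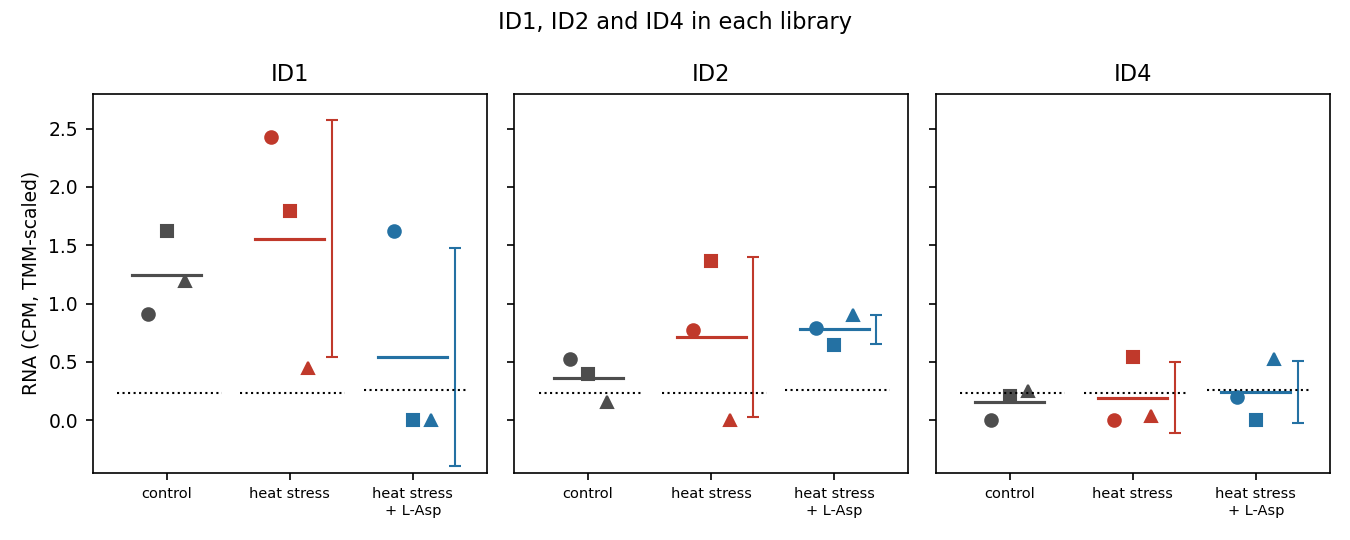
ID1, ID2 and ID4 RNA in CPM (TMM-scaled) in each of the 9 libraries, with the group mean as a line, the SD (n = 3) as a bar for the heated groups and a dotted line at the level of 12 counts, averaged over the libraries of the group. ID1 reaches 2.43 CPM and is at 0 in 2 libraries with L-Asp, and most ID4 libraries lie at or under the dotted line.

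The E proteins, the main partners of the ID members, were scarce as RNA. Summed over TCF3, TCF4 and TCF12, the E proteins had 2.91 to 3.10 FPKM in control, 2.03 to 3.80 with heat alone and 2.81 to 4.75 with L-Asp. The FPKM of ID3 was 2396 to 2523 times that sum in control, 742 to 1325 times with heat alone and 859 to 1259 times with L-Asp. The heated groups overlapped in this ratio and both lay under control, which follows from the ID3 values that chose the family.

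TCF12 measured 23.9 CPM in control, 22.8 ± 6.68 CPM with heat alone and 24.3 ± 9.55 CPM under L-Asp (SD, n = 3 each). TCF3, which encodes the E proteins E12 and E47, measured 8.38, 8.39 and 8.95 CPM in control, 3.44, 9.49 and 7.59 CPM with heat alone and 9.99, 14.1 and 19.9 CPM with L-Asp. Its libraries with L-Asp lay above those of heat stress without overlap, as did those of 6.31% of all genes tested. The log2 fold change of 1.10 ± 0.46 (SE) did not pass (adjusted p = 0.738 by edgeR). TCF4 stood at 0.917 CPM in control, 1.03 ± 1.42 CPM with heat alone and 0.0541 ± 0.0936 CPM with L-Asp, with 2 of the 3 libraries with L-Asp at 0.

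Of 47 tissue-specific bHLH genes on the list used, 27 were found in the table and 13 were tested. None was called in any of the 3 comparisons by edgeR or DESeq2, and none had an unadjusted p under 0.05. MESP1, a mesoderm factor, was the most abundant of them, at 133 FPKM in control, 131 with heat alone and 146 with L-Asp. TCF15, a factor of somite development, followed at 5.00, 9.39 and 8.42 FPKM. FIGLA, the oocyte bHLH factor that drives the zona pellucida genes, measured 3.96 CPM in control, 5.70 ± 1.07 CPM with heat alone and 2.95 ± 0.88 CPM under L-Asp (SD, n = 3 each). Among the HES, HEY and BHLHE repressors, a bHLH class of its own, 4 of 9 found genes were tested and none passed either. HEY1 and HEY2 led that list, at 85.3 and 36.5 CPM in control, 90.4 ± 3.67 and 47.4 ± 9.94 CPM with heat alone and 97.4 ± 8.02 and 46.6 ± 1.68 CPM with L-Asp. HES6 was at 12.5, 8.11 ± 3.81 and 11.4 ± 0.998 CPM.

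The BMP branch upstream of the ID genes was represented mainly by BMP15, which the oocyte secretes to act on granulosa cells. BMP15 measured 5157, 5253 and 5109 CPM in control, 2435, 2374 and 1394 CPM with heat alone and 2326, 1621 and 2575 CPM with L-Asp. All 6 heated libraries lay below control, as for ID3, but the 2 heated groups overlapped. Of all genes tested, 11.8% had all 6 heated libraries below the averaged control, as had 26 of the 108 genes of at least 1000 CPM. The log2 fold change of BMP15 with L-Asp over heat stress was 0.07 ± 0.26 (SE; adjusted p = 0.99 by edgeR), beside 0.57 ± 0.20 for ID3, and the difference between the genes was not tested. GDF9, the partner ligand of BMP15, measured 226 CPM, 223 CPM and 231 CPM in control, 160 to 185 CPM with heat alone and 126 to 176 CPM with L-Asp. BMP4 lay at 34.2 CPM in control, 36.4 ± 17.1 CPM with heat alone and 54.4 ± 23.1 CPM with L-Asp.

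Of the 6 ligand genes tested, 5 had a fold change below 0 for heat stress against control (median log2 fold change -0.63, against 0.00 over all genes tested, of which 50.1% lay above 0). None was called by edgeR or DESeq2, and BMP15 alone had an unadjusted p under 0.05. With L-Asp over heat stress 4 of 6 lay above 0 (median 0.26, against -0.01 over all genes). BMP6 alone had an unadjusted p under 0.05 there, at 18.2 ± 6.96 and 31.6 ± 7.79 CPM (adjusted p = 0.738 by edgeR), and is named here after its values were seen.

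Receptors of the branch were present at moderate levels. BMPR1B, a type I receptor, measured 85.0 CPM in control, 97.6 ± 22.7 CPM with heat alone and 99.1 ± 16.7 CPM with L-Asp. ACVR1, another type I receptor, measured 24.7, 18.3 ± 14.4 and 19.4 ± 2.24 CPM. ACVR2B, a type II receptor, measured 54.9, 43.8 ± 5.36 and 67.9 ± 20.5 CPM. Its heat stress libraries, at 37.7 to 47.0 CPM, lay below those with L-Asp at 54.3 to 91.5 CPM (adjusted p = 0.738 by edgeR). Groups apart in this direction were found for 6.31% of all genes tested. Of 8 receptor genes tested, 7 had a fold change above 0 with L-Asp over heat stress (median log2 fold change 0.30), where 49.0% of all genes tested did. None was called by edgeR or DESeq2.

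Among the signal transducers, SMAD1 measured 81.5 CPM in control, 94.6 ± 3.51 CPM with heat alone and 80.8 ± 9.29 CPM with L-Asp. SMAD5 measured 149, 211 ± 38.9 and 186 ± 5.67 CPM. Over the 9 genes of this list, 4 had all 3 heat stress libraries above control (SMAD1 and SMAD5 among them) and 4 had all 3 below, beside 17.3% and 25.0% of all genes tested. SMAD9 and SMAD4 were low, at 0.780 and 0.995 CPM in control. The coactivator CREBBP measured 48.8, 37.6 ± 14.8 and 36.0 ± 12.3 CPM. All 9 genes were tested and none was called in any comparison by edgeR or DESeq2, nor had any an unadjusted p under 0.05.

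Inhibitors of the branch gave the same count of 0 calls by edgeR and by DESeq2 among 12 tested genes, and none had an unadjusted p under 0.05. SMURF2, a ubiquitin ligase for SMAD proteins, was the most abundant, at 784 CPM in control, 821 ± 83.5 CPM with heat alone and 846 ± 96.9 CPM with L-Asp. The extracellular regulator BMPER measured 75.9 CPM in control, 49.0 to 71.5 CPM with heat alone and 55.2 to 71.0 CPM with L-Asp, and follistatin (FST) 49.3, 32.0 ± 10.0 and 34.1 ± 2.93 CPM. Inhibitory SMADs, which are themselves BMP target genes, were barely detected: SMAD6 stood at 1.01 CPM in control, and SMAD7 had counts in 1 of the 9 libraries.

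Other textbook BMP targets stood at lower FPKM levels than ID3. MSX1 measured 20.9 CPM in control, 23.0 ± 2.65 CPM with heat alone and 20.7 ± 2.44 CPM with L-Asp. GATA4 measured 86.9, 86.5 and 82.4 CPM in control, 42.9, 48.5 and 120 CPM with heat alone and 103, 143 and 168 CPM with L-Asp, so that the heated groups overlapped (log2 fold change with L-Asp over heat stress 0.97 ± 0.37 (SE), adjusted p = 0.738 by edgeR). Of 10 targets tested, 5 had a fold change above 0 and 5 below for heat stress against control, and none was called by edgeR or DESeq2.

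Enzymes that act on ID proteins, and other proteins that bind them, were measured too. USP1, which removes ubiquitin from ID proteins, measured 567 CPM in control, 541 ± 103 CPM with heat alone and 451 ± 91.8 CPM with L-Asp. CDC20, an activator of the anaphase-promoting complex, measured 188, 130 ± 51.1 and 219 ± 104 CPM. Of the binding partners outside the bHLH class, the ETS factors ELK3 and ELK4 measured 257, 196 ± 71.1 and 257 ± 45.6 CPM, and 74.4, 75.3 ± 13.7 and 75.3 ± 4.14 CPM. RB1, the retinoblastoma protein, measured 33.0, 54.9 ± 12.6 and 40.8 ± 7.39 CPM. Cell-cycle inhibitor genes, which E proteins can activate, were low, with CDKN2B at 17.2, 21.0 ± 3.18 and 19.8 ± 3.54 CPM, CDKN2D at 11.3, 5.38 ± 1.20 and 4.60 ± 1.54 CPM and CDKN1A at 10.7, 6.46 ± 4.51 and 9.53 ± 6.82 CPM. None of the 7, 8 and 6 tested genes of these 3 lists was called by edgeR or DESeq2 or had an unadjusted p under 0.05.

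Over all 82 tested genes of the partner, BMP, turnover and cell-cycle lists, 0 were called in any comparison by edgeR (smallest adjusted p 0.59) or DESeq2. At an unadjusted p under 0.05 there were 1, 1 and 4 genes for heat stress against control, heat stress plus L-Asp against control, and the 2 heated groups. For heat stress against control, 24 of the 82 (29.3%) had all 3 libraries below control and 14 (17.1%) above, beside 25.0% and 17.3% of all genes tested. With L-Asp over heat stress, 5 (6.10%) were higher and 4 (4.88%) lower without overlap, beside 6.31% and 5.54%. These shares are near the background. The 2 comparisons with control share the control sample, and both comparisons that involve heat stress share those libraries.

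Markers of other cells are given beside the ID values, since granulosa cells also express ID genes, and edgeR called none of them in any comparison. Summed CPM of the 22 cumulus and granulosa markers found was 1309 to 1350 in control, 1347 to 1721 with heat alone and 1328 to 1366 with L-Asp. RGS2, which the oocyte libraries of every group held at high levels, made up most of it, at 942 CPM in control, 1076 ± 235 CPM with heat alone and 862 ± 65.8 CPM with L-Asp. As a mean of log2(CPM + 1) over these markers, which weights them equally, the level was 1.9516 to 2.0026 in control. It was 2.2925 to 2.5589 with heat alone and 2.1998 to 2.5431 with L-Asp. On this measure both heated groups lay above control without overlap, and the difference was not tested. KITLG, which followed RGS2 and FST by FPKM, measured 102, 106 ± 16.4 and 110 ± 18.4 CPM. The defining steroid enzyme CYP11A1 was at 0, 0 and 0.115 CPM in control, 5.98, 6.37 and 15.1 CPM with heat alone and 1.32, 7.80 and 0.687 CPM with L-Asp. GJA1 measured 0.800 CPM in control, 9.16 ± 3.64 CPM with heat alone and 4.55 ± 2.75 CPM with L-Asp.

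DESeq2 called CYP11A1, FSHR, GJA1 and GATA6 for heat stress against control. For heat stress plus L-Asp against control it called CYP11A1 and FSHR, whereas edgeR called none of the 16 tested markers. Over all genes DESeq2 called 183 of 16142 and 64 of 16574. With heat alone, 12 of the 16 lay above 0 and 4 below (median log2 fold change 0.84, against 0.00 over all genes). For 8 markers all 3 heat stress libraries lay above control and for 1 below, beside 17.3% and 25.0% of all genes tested. With L-Asp, 8 lay above control in all 3 libraries and 5 below, beside 19.0% and 26.0%. In the contrast of L-Asp with heat stress, 6 of the 16 lay above 0 and 10 below (median log2 fold change -0.29, against -0.01 over all genes). Without overlap, 0 were higher and 3 lower, beside 6.31% and 5.54% of all genes tested. None was called there by either tool, and NR5A2, GATA4 and SERPINE2 had an unadjusted p under 0.05 by edgeR. FSHR had no more than a trace, at 0 CPM in averaged control, 0.499 ± 0.865 CPM with heat alone and 0.701 ± 1.21 CPM with L-Asp. Its SD exceeded its mean in both heated groups, so its calls do not rest on a level shared by the 3 libraries. LHCGR, INHBA, INHBB, PTX3, AMH and GATA6 had 0 counts in all control libraries. LHCGR, PTX3, AMH and NR5A1 had 0 counts in all heat stress libraries, and PTX3 and NR5A2 in all libraries with L-Asp. By group mean, the cumulus and granulosa markers called by DESeq2 were lowest in control, where ID3 was highest. Their part in the ID values was not tested. Theca and stroma markers summed to 11.4 to 12.5 CPM in control, 4.75 to 9.78 CPM with heat alone and 8.38 to 10.8 CPM with L-Asp, with COL1A1 at 0 in control. DESeq2 called INSL3 of this list for L-Asp over heat stress, where it called 179 of 19163 genes. INSL3 had 0 counts in all control and heat stress libraries. TAGLN alone of the 5 tested had an unadjusted p under 0.05 by edgeR in that contrast. Blood and immune markers summed to at most 5.24 CPM in any library (PTPRC 0.800 CPM in control), and endothelial markers to 23.6 to 42.5 CPM, mostly TEK (25.4 CPM in control, beside 9.95 CPM of PECAM1).

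Oocyte markers were abundant in all libraries, as the labelled cell type implies, and their sum was lower in the heated groups. It was 36154 to 36474 CPM in control, 19178 to 23761 CPM with heat alone and 23907 to 27857 CPM with L-Asp, and BTG4 made up the largest share of it. As a mean of log2(CPM + 1) over the 19 genes, which weights them equally, the level was 7.999 to 8.033 in control, 7.70 to 7.73 with heat alone and 7.79 to 8.05 with L-Asp, where L-Asp overlapped control. BTG4, a deadenylation adaptor of maternal mRNA, measured 15798 CPM in control, 7322 ± 1688 CPM with heat alone and 7384 ± 2128 CPM with L-Asp. The oocyte linker histone H1-8 measured 4193, 2823 ± 462 and 3862 ± 365 CPM. KPNA7, an oocyte importin, measured 4707, 3091 ± 819 and 5427 ± 1408 CPM. Of the 19 oocyte markers tested, 12 had a fold change below 0 for heat stress against control and 14 had one above 0 with L-Asp over heat stress. Of all genes tested, 50.1% and 49.0% had a fold change above 0 in these comparisons. With heat alone, 9 of the 19 markers had all 3 libraries below control and 4 above, beside 25.0% and 17.3% of all genes tested. None was called by edgeR or DESeq2, and 6, 7 and 3 had an unadjusted p under 0.05 for heat stress against control, heat stress plus L-Asp against control, and L-Asp over heat stress. Over all 15012 genes tested, 579, 484 and 993 had one, in the same order.

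The genes most like ID3 over the 7 libraries (averaged control and 6 heated) were found among 5758 named genes of at least 10 CPM. The measure was the root mean squared difference of log2 CPM, each gene centred on its own mean. The 5 closest were ZNF664 at 0.13, OMA1 at 0.18, CPNE2 at 0.18, OXNAD1 at 0.20 and MOS at 0.20, where the median over all genes compared was 0.62. ID3 itself was used to choose them, so their likeness is a description. MOS, the kinase that holds the MII arrest, measured 1537 CPM in control, 498 to 721 CPM with heat alone and 686 to 1113 CPM with L-Asp. OMA1, a protease of the inner mitochondrial membrane, measured 191 CPM in control, 79.8 to 110 CPM with heat alone and 119 to 137 CPM with L-Asp. ZNF664, a zinc finger gene, measured 72.3 CPM, 25.9 to 36.8 CPM and 37.9 to 50.5 CPM in the same order.

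**Figure D5:**
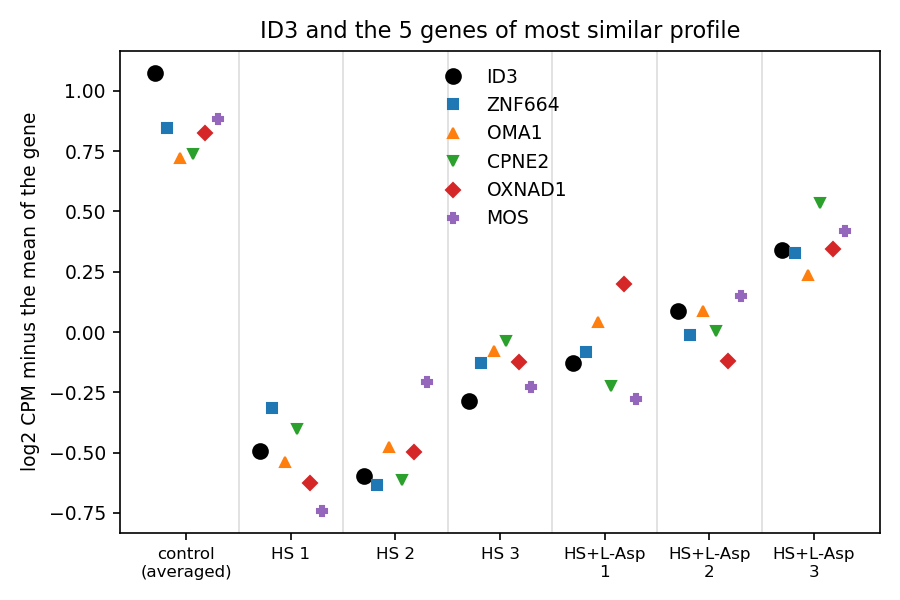
Log2 CPM minus the gene's own mean over 7 libraries, for ID3 (black) and the 5 genes of smallest root mean squared difference from it. All 6 genes are highest in the averaged control, and ID3 lies above the others there.

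By position the 4 genes lie on 4 chromosomes, and no other gene of the table overlaps any of them. Whether reads of transcripts outside this annotation enter their counts was not tested. The nearest genes to ID3 are E2F2, 23679 bases away at lower coordinates, and ENSSSCG00000038035, 85492 bases away at higher ones. Both were low, at 1.44 and 3.67 CPM in control, 0.674 and 1.38 CPM with heat alone and 0.387 and 2.38 CPM with L-Asp. RPL11, a ribosomal protein gene next along, lay the other way from ID3 with 35.9, 120.0 and 97.6 CPM. The deposited annotation gives all 4 members 4 shared gene ontology terms, which include protein dimerisation activity and negative regulation of transcription, and 2 shared KEGG pathways, TGF-beta signalling and pluripotency of stem cells.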

How the data were processed

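RNA of 9 libraries from pig MII oocytes was analysed, grouped by the sample titles. The deposited table holds counts per gene, used as deposited, and FPKM values computed by the authors. Per the submitters' processing notes, which state no roles, the tools were HISAT2 2.2.1, cutadapt 1.9, edgeR, StringTie 2.1.6 and DESeq2. For genome build and counting method, the sources used here give no name. Another 6 per-sample columns of the table were left out. The cDNA preparation in the labels marks neither strand nor molecule.

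The control counts were averaged, rounded and used as 1 library. Genes were kept by filterByExpr on the 9 libraries (15012 of 23507), scaled by TMM and tested on 7 libraries with edgeR 4.0.16 (glmQLFit with robust = TRUE, glmQLFTest, 1 mean per group, 4 residual degrees of freedom) in R 4.3.3, with Benjamini-Hochberg adjustment over all genes and a threshold of 0.05. DESeq2 1.42.0, other scalings and filters, all 9 libraries, a replicate block and leaving out each library were alternatives. Log2 CPM used a prior count of 2.

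The ID members, the gene lists and the use of 1 averaged control were chosen with earlier results of these data known. From each list the 3 tested genes of highest FPKM are named, plus BMP15, GDF9, defining cell markers and the 5 genes most like ID3. Others are named outside this rule, among them SMAD4, SMAD6, SMAD7, SMAD9, BMP6, TEK and the genes next to ID3. Replicate numbers were not used to pair the libraries in the main fit.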

Additional observations from a re-analysis of the deposited data

How the results depend on the processing

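The log2 fold change of ID3 with L-Asp over heat stress kept its sign in all 20 alternatives (0.44 to 0.67; adjusted p 0.252 to 1), and its unadjusted p rose to 0.0608 without heat stress replicate 2 and to 0.0804 without L-Asp replicate 3. Against control, ID3 lay at -1.63 to -1.35 for heat stress, the last by library totals only, and at -1.09 to -0.79 for heat stress plus L-Asp. Alternatives with mitochondrial genes left out, and the filter recomputed on 7 libraries, were chosen after seeing the data.

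Counts of genes called, 0 in each comparison as reported, depended on the setting, and the cause was not tested. For L-Asp over heat stress they were 2 without a filter on low counts, 2 with the filter recomputed on 7 libraries, 2 with the 3 control libraries as replicates, 179 with DESeq2 and 0 to 3 leaving out one library. For heat stress against control they were 9 without a filter, 183 with DESeq2, 433 with 3 control libraries and 0 to 1 leaving out one library. For heat stress plus L-Asp against control they were 3, 64, 269 and 0 to 1 in the same order.

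Deviations from the group mean were barely correlated between libraries that share a replicate number (-0.024 to 0.052). Pairs with a control library cannot show pairing, since the control libraries were close to repeat samplings of one preparation. Heated libraries of the same number gave 0.052, -0.021 and 0.010, and those of different number -0.044 to 0.036. With a replicate block on the 6 heated libraries, ID3 gave 0.57 (adjusted p = 0.499 by edgeR) and 0 genes were called. With a replicate block on 9 libraries, 378 genes were called for heat stress against control and 223 for the group with L-Asp against control. That fit entered the 3 control libraries, close to repeat samplings of one preparation, as separate replicates. Without a block, the same 9 libraries gave 433 and 269 calls.

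The scarce members depended on single libraries. Leaving out one library, L-Asp over heat stress ran from -0.45 (without heat stress replicate 3) to 1.01 for ID2. For ID4 it ran from -0.93 (without L-Asp replicate 3) to 3.46, and was -0.28 and -0.17 without heat stress replicates 1 and 3. For ID1 it was -9.26 without L-Asp replicate 1, which leaves that group at 0 counts. The ID4 values are fitted to counts mostly at or under 12 and are no measured folds. Few counts and a wide spread between libraries both go with the wide intervals of these 3 genes, and their parts were not tested.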
